A study of Enchytraeus crypticus with 30 samples.

Results

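The genes described here are those of *Enchytraeus crypticus* whose signal was lower in nickel nitrate (NiNO3) at EC50 than in the control at both sampling days, while the signal in nickel nanoparticles (Ni-NPs) at EC50 stayed close to that of the control. There were 5 such genes, contig23353, GYUW2K402I73Y8, contig05138, contig13901 and contig11478, among 24653 genes measured with good signal and 43750 genes on the array. Adult worms with clitellum were kept for 3 or 7 days without food in the standard soil LUFA 2.2, spiked with NiNO3 or with Ni-NPs or left un-spiked as the control. EC20 and EC50 are the concentrations at which reproduction is lowered by 20% and by 50%, so the salt and the particles were matched by effect and not by the mass of nickel. The 8 treatments and the 2 controls (day 3 and day 7) had 3 arrays each, 30 in all, and each array measured RNA from the whole bodies of 20 pooled worms from a test vessel. The array's probes carry the names of sequences. Of the 5 genes, 4 are named after an assembled contig and 1 after a single sequencing read, and no function is paired with them here.

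*E. crypticus* is a small white annelid, a potworm, that lives in the upper layer of the soil and feeds on decaying matter, and it is a test animal of soil ecotoxicology because its reproduction responds to pollutants. Nickel nitrate is a soluble salt that releases nickel ions into the pore water of the soil. Nickel nanoparticles are metal grains that dissolve slowly, so that animals can meet the particles, the ions set free from them, or both. A comparison of a salt with a particle at concentrations of equal effect asks whether the animal's transcripts respond to the form in which the metal is given.

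The level of a gene is given as the log2 of its background-corrected spot intensity minus the median of that array, so a level of 0 is the median gene and a difference of -1 is a halved signal. The members were chosen by differences of mean levels between treatment and control of the same day. The difference had to be at or below -0.8 in NiNO3 EC50 at both days and smaller than 0.4 in size in Ni-NPs EC50 at both days. These 18 arrays, controls included, therefore describe the 5 genes and test nothing about them. The differences of the 12 arrays of the EC20 treatments were not used in the choice of the 5 genes. These 12 arrays did take part in the signal filter, which kept only genes with a positive and significant signal on every array. The comparison of NiNO3 EC20 with Ni-NPs EC20, which involves no control array, is called the independent one. It is so in its differences only, and apart from this filter.

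Few genes met both limits. Of the 24653 genes, 218 were at or below -0.8 in NiNO3 EC50 at both days, and the 5 genes are 2.29% of these. Of the same 218 genes, 209 were also below 0 in Ni-NPs EC50 at both days, 165 were at or below -0.4 at both days and 212 at 1 day or more. Over the 218 genes the median difference from the control, as the mean of both days, was -1.23 in NiNO3 EC50 and -0.83 in Ni-NPs EC50. For the 5 genes the corresponding medians were -1.15 and -0.29.

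**Figure D1:**
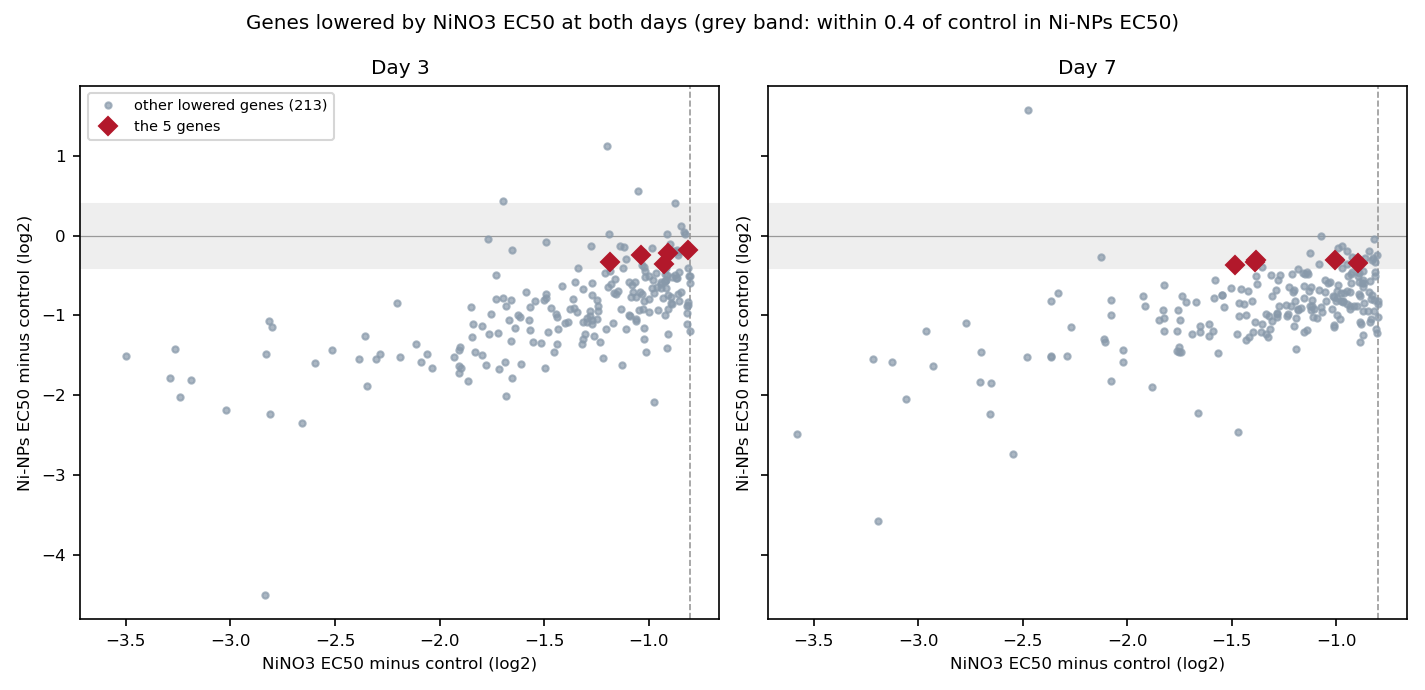
Difference from the same-day control (log2) in NiNO3 EC50 on the horizontal axis and in Ni-NPs EC50 on the vertical axis, at day 3 and day 7, for the 218 genes at or below -0.8 in NiNO3 EC50 at both days. The 5 genes (red diamonds) lie inside the grey band of 0.4 on either side of 0, on its negative side, and most of the 213 other genes (points) lie below the band.

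In Ni-NPs EC50, all 10 differences of the 5 genes from the control, for 5 genes at 2 days, were below 0, between -0.37 and -0.18. The arrays overlapped with those of the control in 9 of these 10. No share over all genes was computed for this count, and nothing is read from it. The values, which the choice used, were not tested. After MedianCD normalization and without a filter on signal quality, 9 of these 10 were below 0 instead of all. In name the genes are lowered by nickel nitrate only, but their mean levels in Ni-NPs EC50 were below those of the control as well, and their separation from the other genes depends on where the limit of 0.4 is drawn. The member nearest to the limit of -0.8 was GYUW2K402I73Y8 (-0.81 at day 3), followed by contig11478 (-0.91 at day 3). Just outside lay contig14117 (-0.79 at day 7) and GYUW2K402FXIBU (-0.78 at day 7). On the side of the nanoparticles, contig13901 (-0.37 at day 7) and contig05138 (-0.36 at day 3) were nearest to the limit inside, and contig24714 (-0.45 at day 7) and GYUW2K402IM6HZ (-0.49 at day 3) were nearest outside. With a limit of 0.3 in place of 0.4, no gene would have been a member, and with -0.6 in place of -0.8 there would have been 40.

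Contig13901 is the gene in which NiNO3 EC50 and the control were farthest apart relative to the standard error. Its control arrays had levels of 2.45, 1.95 and 2.33 at day 3 and of 2.58, 2.28 and 2.08 at day 7. In NiNO3 EC50 the levels were 1.17, 0.97 and 1.04 at day 3 and 0.77, 0.67 and 1.05 at day 7. In Ni-NPs EC50 they were 2.03, 1.84 and 1.86 at day 3 and 1.86, 1.68 and 2.31 at day 7. The NiNO3 EC50 arrays were thus all below the control arrays and all below the Ni-NPs EC50 arrays at both days, while the Ni-NPs EC50 arrays overlapped with the control at both days. The mean differences from the control were -1.18 and -1.48 in NiNO3 EC50 and -0.33 and -0.37 in Ni-NPs EC50 (standard error of each 0.25, day 3 and day 7). At EC20, the NiNO3 arrays had 0.82, 1.40 and 1.32 at day 3 and 1.52, 1.51 and 1.87 at day 7, all below the control arrays of their day. The Ni-NPs EC20 arrays had 1.39, 1.86 and 2.49 at day 3 and 2.80, 2.12 and 2.36 at day 7. At day 3, the lowest of them fell inside the range of NiNO3 EC20, and at day 7 the groups were separate.

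Contig05138 was the brightest of the 5 genes, at a control level above that of 85.4% of the genes. Its control arrays had 3.85, 3.60 and 4.25 at day 3 and 3.68, 3.80 and 3.93 at day 7. The NiNO3 EC50 arrays had 3.24, 2.84 and 2.84 at day 3 and 2.51, 2.81 and 3.06 at day 7, all below the control. In Ni-NPs EC50 the levels of 3.58, 3.69 and 3.36 at day 3 and of 3.36, 3.23 and 3.92 at day 7 overlapped with the control at both days. The differences from the control were -0.93 and -1.01 in NiNO3 EC50, and -0.36 and -0.30 in Ni-NPs EC50 (standard error 0.23). In NiNO3 EC20 the arrays had 2.98, 3.44 and 2.88 at day 3 and 2.96, 3.02 and 3.42 at day 7, again all below the control arrays of the day. In Ni-NPs EC20 they had 3.41, 3.34 and 4.04 at day 3 and 3.95, 4.05 and 3.82 at day 7. They overlapped with NiNO3 EC20 and with the control at day 3, and lay above NiNO3 EC20 and across the upper end of the control at day 7.

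Contig23353 was the dimmest, with a control level above that of only 25.5% of the genes. It was well above background on 25 of the 30 arrays, and the 5 other arrays were all of NiNO3, 2 of EC20 at day 3, 2 of EC20 at day 7 and 1 of EC50 at day 3. Its control arrays had -2.19, -1.90 and -0.99 at day 3 and -1.97, -1.28 and -0.69 at day 7. In NiNO3 EC50 it had -3.16, -2.26 and -2.77 at day 3 and -2.91, -2.64 and -2.55 at day 7, all below the control arrays, with the closest arrays 0.07 apart at day 3. In Ni-NPs EC50 it had -2.18, -2.61 and -1.03 at day 3 and -1.32, -2.33 and -1.27 at day 7. The differences from the control were -1.04 and -1.39 in NiNO3 EC50 and -0.24 and -0.33 in Ni-NPs EC50, with a standard error of 0.55 that is more than 2 times that of contig13901. With another background correction, normexp on the median spot signal, chosen after seeing the data, the NiNO3 EC50 differences of this dim gene were only -0.22 and -0.24. At EC20 the NiNO3 arrays had -2.64, -3.22 and -2.34 at day 3 and -3.14, -2.76 and -1.30 at day 7. The Ni-NPs EC20 arrays had -1.86, -1.37 and -0.82 at day 3, above all NiNO3 EC20 arrays, and -1.45, -2.92 and -0.30 at day 7, where 2 of them lay inside the range of NiNO3 EC20.

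Contig11478 lay near the median gene and varied widely between arrays of a condition. Its control arrays had 0.63, -1.30 and -0.22 at day 3 and -0.06, -0.15 and -0.90 at day 7. The NiNO3 EC50 arrays had -1.28, -1.0 and -1.33 at day 3, which overlapped with the control through its second array, and -1.65, -1.93 and -1.69 at day 7, all below the control. In Ni-NPs EC50 the levels were -0.63, -0.14 and -0.77 at day 3 and -0.48, -1.44 and -0.11 at day 7. The differences from the control were -0.91 and -1.38 in NiNO3 EC50 and -0.22 and -0.31 in Ni-NPs EC50 (standard error 0.46). With normexp the NiNO3 EC50 differences were -0.39 and -0.41. The NiNO3 EC20 arrays had -2.32, -1.09 and -1.03 at day 3, the first of them not well above background, and -1.95, -0.79 and -1.35 at day 7. In Ni-NPs EC20 the levels of -1.35, -0.37 and 0.25 at day 3 and of -0.74, -0.90 and -0.07 at day 7 overlapped with NiNO3 EC20 and with the control at both days.

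GYUW2K402I73Y8 was the gene in which NiNO3 EC20 was not lower on average than Ni-NPs EC20 at day 3 (difference 0.08). Its control arrays had 2.02, 1.80 and 2.16 at day 3 and 1.82, 1.61 and 1.56 at day 7. The NiNO3 EC50 arrays had 1.55, 1.1 and 0.90 at day 3 and 0.66, 0.40 and 1.24 at day 7, all below the control. In Ni-NPs EC50 the levels were 1.93, 1.77 and 1.73 at day 3 and 1.27, 1.23 and 1.45 at day 7, and at day 7 these too were all below the control arrays. No other Ni-NPs EC50 group of the 5 genes lay entirely below its control. The share of all genes in which this held was not computed, so it is not read as a trait of this gene. The differences from the control were -0.81 and -0.89 in NiNO3 EC50 and -0.18 and -0.34 in Ni-NPs EC50 (standard error 0.21). The NiNO3 EC20 arrays had 1.38, 1.92 and 1.46 at day 3 and 1.45, 1.08 and 1.35 at day 7. The Ni-NPs EC20 arrays had 1.47, 1.24 and 1.81 at day 3 and 1.75, 1.48 and 1.60 at day 7, so the groups overlapped at day 3 and were separate at day 7, by 0.03.

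**Figure D2:**
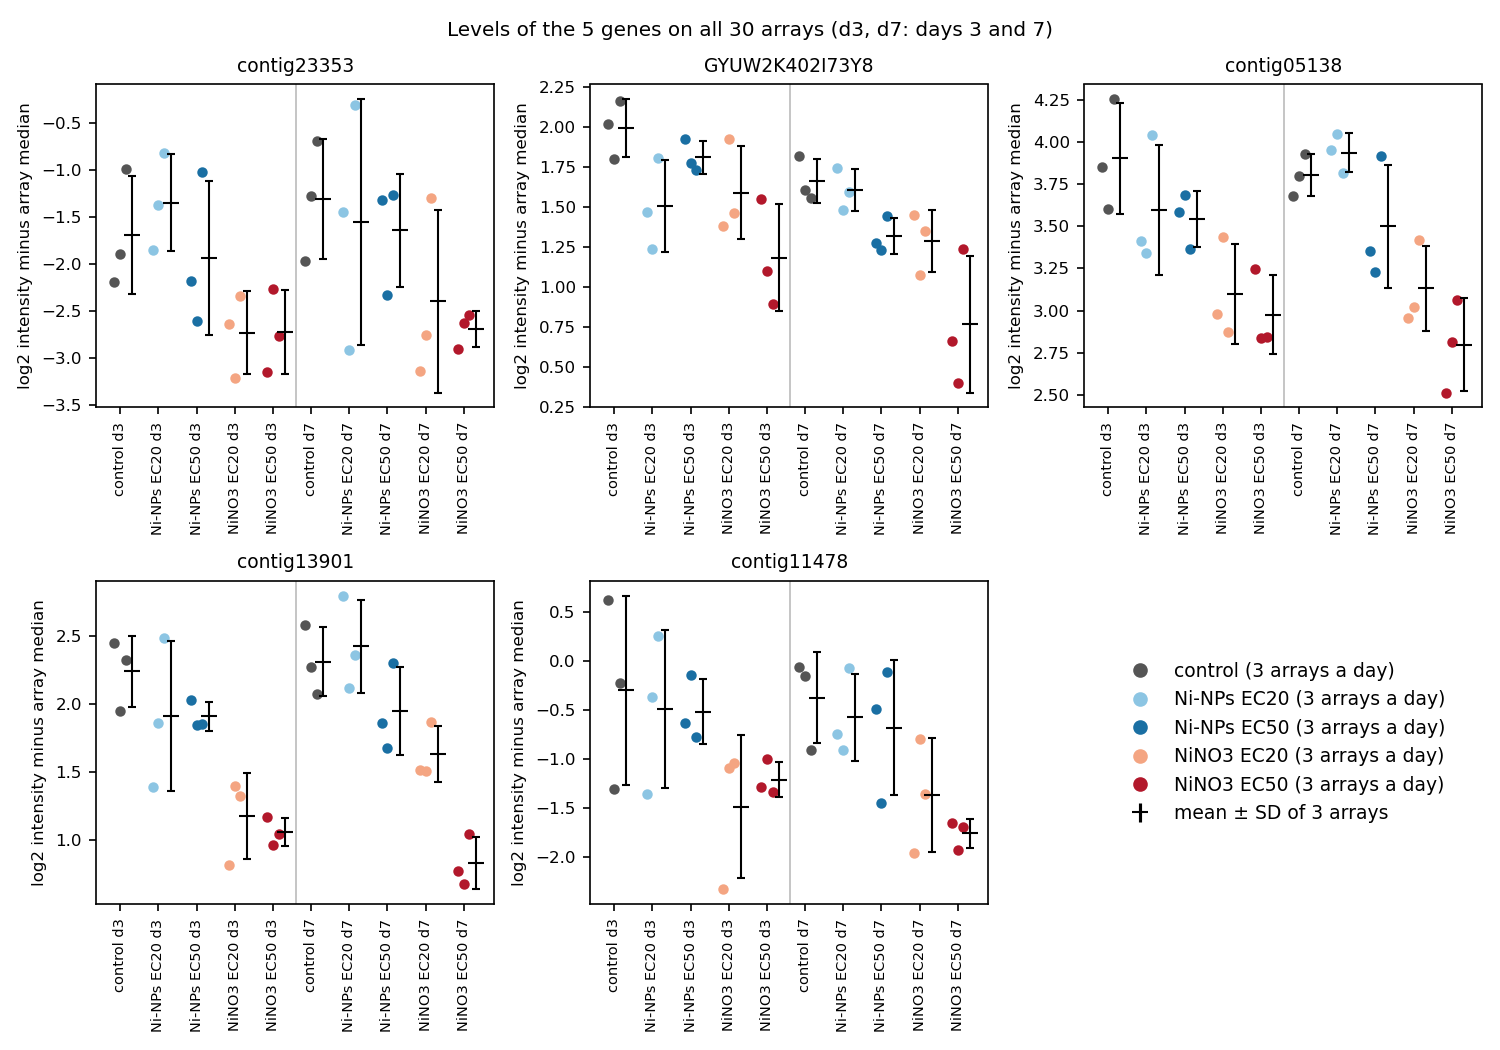
Level (log2 intensity minus array median) of each of the 5 genes on all 30 arrays, by condition, with the control first and day 7 to the right of the grey line. Points are arrays, and the dash and bar beside them are the mean ± SD of 3 arrays. In 4 of the genes the NiNO3 conditions (orange and red) hold the 4 lowest means, and in GYUW2K402I73Y8 they hold 3 of the lowest 4.

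Ordered by mean level, the 10 conditions had the 4 NiNO3 conditions at the bottom in contig23353, contig05138, contig13901 and contig11478. In GYUW2K402I73Y8 the NiNO3 EC20 arrays at day 3 ranked above the Ni-NPs EC50 arrays at day 7 and the Ni-NPs EC20 arrays at day 3. Nearly all neighbours in these orders overlapped in their ranges. The only neighbours without overlap were NiNO3 EC20 at day 3 and NiNO3 EC20 at day 7 in contig13901 (means of 1.18 and 1.63). The top of the order was a control in 3 genes, and Ni-NPs EC20 at day 7 in contig05138 (3.94 ± 0.12, SD, n = 3) and contig13901 (2.43 ± 0.35), where its arrays overlapped with those of the control.

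The contrasts behind the choice are listed with their background and nothing is read from them. With limma on all 30 arrays, 1 of the 5 genes, contig13901, was lower in NiNO3 EC50 at day 3 with an adjusted p under 0.05, against 0.381% of all genes, and 3 (GYUW2K402I73Y8, contig05138 and contig13901) at day 7, against 0.657%. The 3 NiNO3 EC50 arrays were all below the 3 control arrays in 4 of the 5 genes at day 3, where 9.56% of all genes were so, and in all 5 at day 7, where 11.5% were. The difference of NiNO3 EC50 from the control was larger in size at day 7 than at day 3 in all 5 genes, by between 0.08 and 0.47. This change with time is built from the differences that chose the genes, so its contrast tests nothing about them. It called 2 of the 24653 genes, none of them among the 5. Arrays of NiNO3 EC50 and control that lay on the same slide were 1 pair at each day. Within these pairs the 5 differences were between -1.78 and -1.12 at day 3 and between -1.64 and -0.95 at day 7. Ni-NPs EC50 shared a slide with the control only at day 7 (slide 4). There its 5 differences were between -0.44 (contig05138) and -0.04 (contig23353), with -0.42 in contig13901.

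The independent comparison asked whether NiNO3 also gave lower levels than Ni-NPs at EC20, in arrays whose differences did not choose the genes. Levels were lower in NiNO3 EC20 in 4 of the 5 genes at day 3 and in all 5 at day 7, and as the mean of both days they were lower in all 5 by a median of -0.76 on the log2 scale, against -0.01 over all genes. No gene of the 5 passed the threshold in any of the 3 comparisons after adjustment over all genes. Contig13901 had the smallest adjusted p. Its level in NiNO3 EC20 was 58.9% of that in Ni-NPs EC20 over both days (log2 difference -0.76, standard error 0.17, 95% interval -1.12 to -0.40, limma adjusted p = 0.0712). Contig05138 had 63.6% (-0.65, standard error 0.16, interval -0.99 to -0.32, adjusted p = 0.0968). Both genes had a small spread between arrays, with a residual SD below that of most genes. That spread was estimated from all arrays in the fit, including the control and EC50 arrays that chose the genes. The standard errors and p-values are therefore not independent of the choice. With only the 12 EC20 arrays in the limma fit, the adjusted p was 0.608 for both genes. After MedianCD and SVCD normalization, which shift all genes of a condition, 4 and 2 of the 5 genes were called over both days, against 6.71% and 3.4% of all genes called lower. With normexp 0 were called and the median of the 5 genes was -0.30.

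The dim and the widely varying genes had larger differences with wider intervals, an order that turned with normexp. Contig23353 had a difference of -1.11 (standard error 0.39, interval -1.92 to -0.30, limma adjusted p = 0.278) over both days, with 4 of its 6 NiNO3 EC20 arrays not well above background. Contig11478 had -0.89 (standard error 0.33, interval -1.57 to -0.22, adjusted p = 0.296). With normexp these were -0.20 and -0.30, against -0.64 for contig05138 and -0.60 for contig13901. GYUW2K402I73Y8 had -0.12 (standard error 0.15, interval -0.43 to 0.19, adjusted p = 0.79), an interval that includes 0 and excludes differences as large as the median of the 5 genes. The residual SD of contig23353 was above that of 90.6% of the genes and the one of contig11478 above 80.3%, against 16.3% for GYUW2K402I73Y8, 22.6% for contig05138 and 28.3% for contig13901.

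**Figure D3:**
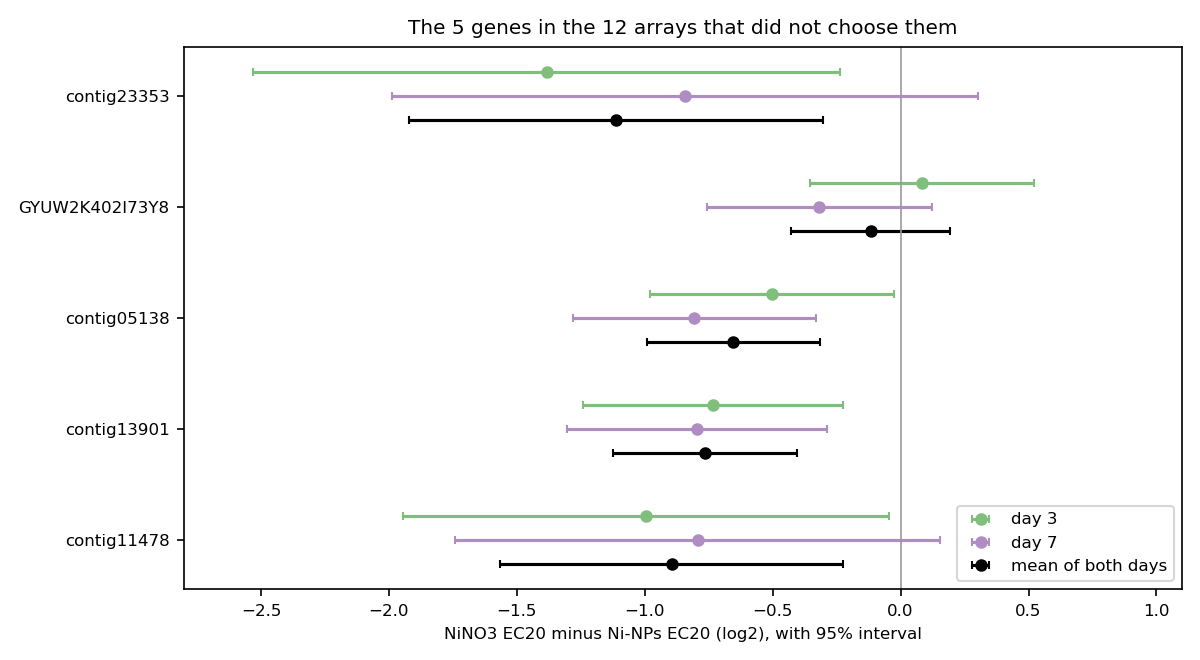
Difference between NiNO3 EC20 and Ni-NPs EC20 (log2, horizontal axis) for the 5 genes at day 3, day 7 and as the mean of both days, with 95% intervals from limma, 3 arrays per condition. The fit has no term for slide, and its spread includes the arrays that chose the genes. Over both days the intervals of 4 genes lie below 0 before adjustment for the number of genes, and that of GYUW2K402I73Y8 runs from -0.43 to 0.19.

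Counts of genes past the thresholds were read against the share of all genes. At day 3, 0 of the 5 genes had an adjusted p under 0.05, against 0% of all genes, and 4 had an unadjusted p under 0.05 with a lower level in NiNO3 EC20, against 4.94%. At day 7, 0 of the 5 were called, against 0.0406%, and 2 (contig05138 and contig13901) were lower at an unadjusted p under 0.05, against 5.45%. For the mean of both days the counts were 0, against 0.122%, and 4, against 6.61%. The 4 genes at day 3 and over both days were the same, all but GYUW2K402I73Y8. The NiNO3 EC20 arrays were all below the Ni-NPs EC20 arrays in 1 gene at day 3 (contig23353), where this held for 5.38% of all genes, and in 3 genes at day 7 (GYUW2K402I73Y8, contig05138 and contig13901), where it held for 4.95%.

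By day, the median difference of the 5 genes between NiNO3 EC20 and Ni-NPs EC20 was -0.73 at day 3 (range -1.38 to 0.08) and -0.79 at day 7 (range -0.84 to -0.32), with 0.02 and -0.03 over all genes. The test of the difference between the days called 0 of the 5 genes, against 0% of all genes, with adjusted p from 0.822 to 0.975, and 0 of the 5 had an unadjusted p under 0.05. Over time within NiNO3 EC20, 0 of the 5 genes differed between day 7 and day 3 (0.548% of all genes did), and within Ni-NPs EC20 0 did (0.0892%). The largest change with time was that of contig13901, with levels at day 7 higher by 0.45 in NiNO3 EC20 (limma adjusted p = 0.385) and by 0.51 in Ni-NPs EC20 (adjusted p = 0.435).

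The 213 other genes at or below -0.8 in NiNO3 EC50 at both days lay on both sides of 0 at EC20. They had a median difference of -0.30 between NiNO3 EC20 and Ni-NPs EC20 over both days, against -0.76 for the 5 genes. All of the 5 genes but GYUW2K402I73Y8 lay in the lower part of that distribution. Contig23353 was at or above only 8.45% of the 213, contig11478 16.9%, contig13901 21.1%, contig05138 27.2% and GYUW2K402I73Y8 64.3%. Among all genes, contig23353 was at or above 0.572%, contig11478 1.06%, contig13901 1.72%, contig05138 2.65% and GYUW2K402I73Y8 35.4%.

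**Figure D4:**
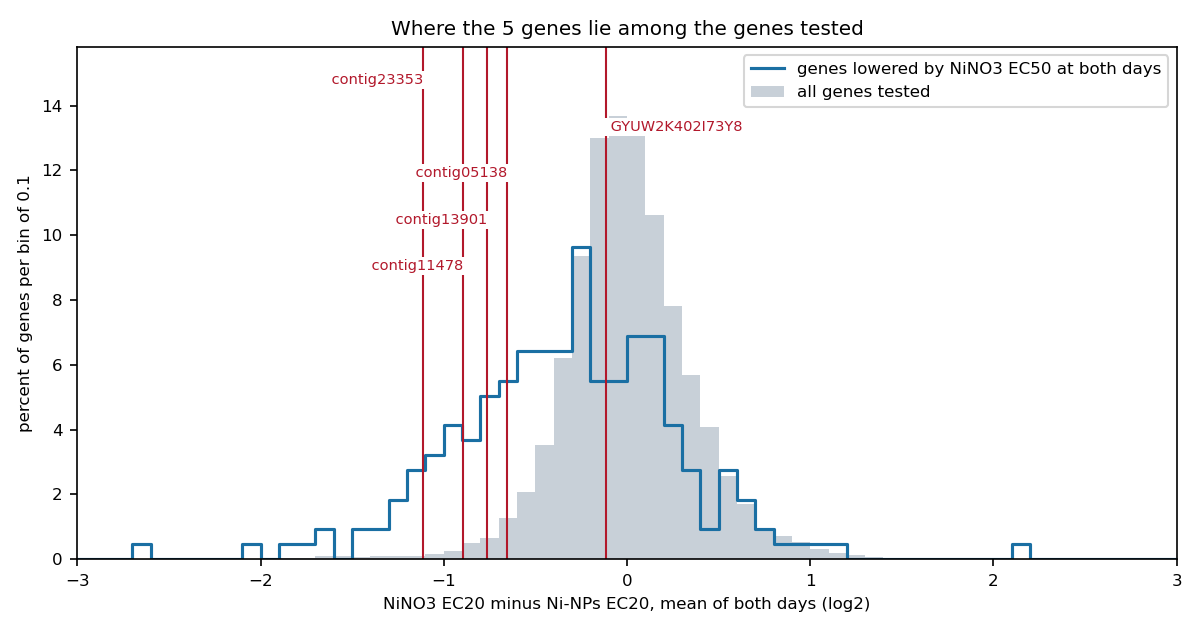
Distribution of the difference between NiNO3 EC20 and Ni-NPs EC20 (log2, mean of both days, horizontal axis) over all 24653 genes (grey bars) and over the 218 genes at or below -0.8 in NiNO3 EC50 at both days (blue line), as percent of genes per bin of 0.1. Red lines mark the 5 genes, 4 of which lie in the lower tail of all genes and GYUW2K402I73Y8 near the centre.

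Slides and scan days did not hold the treatments evenly. At day 3 all 3 NiNO3 EC20 arrays were scanned on the first of 3 scan days and the 3 Ni-NPs EC20 arrays on 3 different ones. Slide 3 held 1 array of each, and there only contig23353 was lower in NiNO3 EC20 (-1.36). The other genes had 0.45 (GYUW2K402I73Y8), 0.02 (contig05138), 0.01 (contig13901) and 0.26 (contig11478). Within the first scan day at day 3, with 3 arrays against 1, the differences were -0.88 for contig23353, 0.12 for GYUW2K402I73Y8, -0.32 for contig05138, -0.21 for contig13901 and -0.13 for contig11478. The pooled differences at day 3 were larger in size, with -0.50 in contig05138, -0.73 in contig13901 and -0.995 in contig11478. Both of these comparisons rest on the same single Ni-NPs EC20 array, replicate 1, so they are not separate checks. That array was the lowest of its group in contig23353 (-1.86), contig13901 (1.39) and contig11478 (-1.35). At day 7, where no slide held both, all 5 genes were lower in NiNO3 EC20 within the first scan day (2 arrays against 1, -1.5 to -0.48). Within the second scan day (1 against 2) 4 genes were lower (-0.86 to -0.19), and contig23353 was higher by 0.32. The part of slide and scan day in the pooled differences was not tested beyond these values and the fits with slide or scan day as a term.

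Against the control, which the choice of the genes also used, all 10 differences of the 5 genes in NiNO3 EC20 were below 0, from -1.19 to -0.37, and in Ni-NPs EC20 7 of 10 were below 0, from -0.49 to 0.35. When the arrays were scaled to the spike-in transcripts, 9 of 10 were below 0 in NiNO3 EC20 and none in Ni-NPs EC20. With that scaling the medians over all genes rose too, to 0.41 (day 3) and 0.33 (day 7) in NiNO3 EC20 and to 0.72 and 0.53 in Ni-NPs EC20. Without it, the medians over the 5 genes were -1.04 (day 3) and -0.68 (day 7) in NiNO3 EC20 and -0.30 and -0.05 in Ni-NPs EC20. Over all genes they were -0.04, -0.04, -0.06 and -0.002. These comparisons share their control arrays with the ones that chose the genes, and NiNO3 and Ni-NPs share them with each other. With limma, 0 of the 5 genes were called lower in NiNO3 EC20 at day 3 (0.183% of all genes were) and at day 7 (0.134%), and 0 in Ni-NPs EC20 at either day (0.00406% at each). The smallest adjusted p was 0.0624, for contig13901 in NiNO3 EC20 at day 3. The 3 NiNO3 EC20 arrays were all below the control arrays in 3 genes at day 3 (contig23353, contig05138 and contig13901), against 5.08% of all genes, and in 3 genes at day 7 (GYUW2K402I73Y8, contig05138 and contig13901), against 4.57%. Slide 3 held 1 array of each form and 2 control arrays of day 3. There NiNO3 EC20 and Ni-NPs EC20 differed from the control by -0.80 and -0.81 in contig13901 and by -0.75 and -1.01 in contig11478. The values were -0.29 and -0.31 in contig05138, 0.01 and -0.44 in GYUW2K402I73Y8, and -1.17 and 0.19 in contig23353. On slide 8 at day 3, Ni-NPs EC20 differed from the control by between -0.35 and 0.47.

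The step from EC20 to EC50 was different between the genes. In NiNO3 at day 7 the mean level of all 5 genes was lower at EC50 than at EC20, with steps from -0.80 in contig13901 to -0.30 in contig23353. At day 3 the step was -0.41 in GYUW2K402I73Y8, -0.12 in contig05138 and in contig13901, 0.001 in contig23353 and 0.28 in contig11478. These steps at day 3 in contig23353 and contig11478 were within the standard error of a difference (0.55 and 0.46), and 2 EC20 arrays and 1 EC50 array of contig23353 were not well above background there. In Ni-NPs the steps lay between -0.59 and 0.30. These values describe groups that the choice of the genes used in part, and none was tested.

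The control levels of the 5 genes were spread from 25.5% to 85.4% of the ranked genes. Their spots lay on rows 262 to 351 of the array's 532 rows, a stretch that held 18% of all genes and 18.8% of the 218 genes. The genes spotted around each of the 5 had median differences from the control between -0.14 and 0.04 in NiNO3 EC50. No outlier flag was set on the 5 genes on any array. After subtraction of the condition means, the correlation of the levels between pairs of the 5 genes over the 30 arrays had a median of 0.32 (10 pairs, 0.01 to 0.69), against 0.01 over all pairs of genes, and 20.9% of all pairs were at or above 0.32. The highest values were those of contig13901 with contig11478 (0.69), GYUW2K402I73Y8 with contig05138 (0.65) and with contig13901 (0.63), and contig05138 with contig13901 (0.59). The pairs share arrays and so any effect of an array that median normalization leaves in them. RNA came from whole worms, and fewer cells of a type cannot be told apart from less RNA per cell.

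On the whole series, the number of genes with a positive and significant signal ran from 29661 to 40433 per array, the share of genes well above background from 44.9% to 76.3%, and none of the genes kept was saturated. The array with 76.3% was Ni-NPs EC20 replicate 3 at day 3, the highest of its group in all 5 genes. The NiNO3 EC20 arrays of day 3 had 46.1%, 53.2% and 53.6%. Without that Ni-NPs array the median difference of the 5 genes between the forms at day 3 was -0.45 in place of -0.73. The part of signal quality in it was not tested. The arrays lay on 10 slides. The number of arrays limits the precision, with a median standard error of 0.31 (log2) for a difference between 2 conditions over all genes.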

How the data were processed

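One-colour arrays (Cy3) of 30 RNA samples were read out by the authors with Agilent Feature Extraction (version 10.7.3.1 per the file headers). The deposited processed signal is a spot intensity on a linear scale, with the background correction of the software and no normalization across arrays. The deposited table of the whole series repeats these intensity values, with a largest log2 gap of 0.00719. Non-control probes, called genes, were kept if each of the 30 arrays had a positive and significant signal. The log2 intensity was centred on the median of each array over these genes, and no further background correction was applied. This is Median normalization, a conventional method that the study compared with its own methods, MedianCD and SVCD. The study argues that Median normalization removes variation between conditions unless that variation is balanced.

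A fit with one mean per condition was made to all 30 arrays with limma 3.58.1 in R 4.3.3. P-values are two-sided and were adjusted by Benjamini-Hochberg over the 24653 genes of each comparison, with a threshold of 0.05. The fit and the rule were run on simulated data with independent genes and no effect of slide, a setting simpler than these data, as a check of the code only. Conditions and replicate numbers were taken from the labels, and each array is a pool of worms from a test vessel. All genes chosen by the rule are named, together with the 2 nearest to each limit on either side. The genes, the rule and the tests were chosen with earlier results of these data known. Same-numbered replicates of NiNO3 EC20 and Ni-NPs EC20 were checked for pairing. The correlations of their deviations from the condition means ran from -0.33 to 0.68 and were over 0.1 in 2 of 6, both at day 7 (0.46 and 0.68). Arrays were treated as unpaired, which this check on the EC20 groups alone cannot establish. The study's code was used for MedianCD and SVCD normalization (seed 20150101). The alternatives tried were other normalizations, filters, background correction, terms for slide and scan day, other sets of arrays in the fit, other limits of the rule and leaving out single arrays.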

Additional observations from a re-analysis of the deposited data

How the results depend on the processing

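The rule chose 5 genes with the summary table and without genes with an outlier flag (the same 5), 4 after Quantile (3 of the 5) and with the 75th percentile (4), 3 after MedianCD (2), 2 after SVCD (2), 1 with spike-in scaling (0), 1 with only genes well above background (1, of 3 kept), 18 without a filter on signal quality (2) and 2 with normexp on the median signal (2), which like the scan day term was chosen after seeing the data. With the limit at -1 it chose 2, at -0.6 40, and with 0.3 for Ni-NPs 0. The cause was not tested. With 1 array left out the number ran from 1 (without Ni-NPs EC50 replicate 3 at day 7, none of the 5) to 10 (without NiNO3 EC50 replicate 1 at day 3, all 5). It was 3 without control replicate 1 or 3 at day 3, 8 without control replicate 2 at day 3 or NiNO3 EC50 replicate 1 or 3 at day 7, and 9 without control replicate 2 at day 7.

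In all alternatives that held a gene of the 5, NiNO3 EC20 stayed below Ni-NPs EC20 over both days. With slide fixed GYUW2K402I73Y8 had -0.007 (all genes -0.02). After MedianCD 4 were called over both days and 3 at day 3 (median of all genes -0.22 and -0.35, 6.71% and 8.88% called lower). After SVCD 2 were called over both days (3.4% of all genes, median -0.18). The medians of the 5 genes at day 3 were -1.10 after MedianCD, -1.04 after SVCD and -1.06 with spike-in scaling, where all genes had -0.35, -0.29 and -0.31. With only genes well above background 1 gene was called over both days (contig13901, adjusted p = 0.0414; 0.241% of all genes). With normexp the medians were -0.32 (day 3), -0.28 (day 7) and -0.30 (both days). With 1 array left out they ran from -0.99 to -0.45 (without Ni-NPs EC20 replicate 3) at day 3, from -0.95 to -0.50 (without NiNO3 EC20 replicate 1) at day 7, and from -0.89 to -0.62 over both days. The number called over both days ran from 0 to 1, with contig13901 called without NiNO3 EC20 at day 3, replicate 3 (adjusted p = 0.0493) or Ni-NPs EC20 at day 3, replicate 1 (0.0292). With slide as a random block or a fixed term or scan day as a fixed term, 0 were called over both days, with medians of -0.72, -0.59 and -0.67 and smallest adjusted p of 0.0901, 0.239 and 0.144. The 12 EC20 arrays alone and the methods' t-test called 0 (0.608 and 0.533).

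Against the control, 1 gene, contig13901, was called in NiNO3 EC20 at day 3 after Quantile, MedianCD, SVCD, with the 75th percentile and with only genes well above background (0.231%, 0.211%, 0.207%, 0.195% and 0.318% of all genes called lower). The medians of the 5 genes moved to -0.59 (day 3) and -0.32 (day 7) in NiNO3 EC20 and to 0.48 and 0.47 in Ni-NPs EC20 with spike-in scaling, where all genes had 0.41, 0.33, 0.72 and 0.53. In Ni-NPs EC20 at day 3 the median was 0.00681 after MedianCD, and in NiNO3 EC20 -0.40 with normexp. With 1 array left out, that of NiNO3 EC20 at day 3 ran from -1.14 to -0.69 (without control replicate 3), and of Ni-NPs EC20 from -0.56 (without its replicate 3) to -0.07 (without its replicate 1). Over time within NiNO3 EC20, 1 gene each was called after MedianCD and SVCD. All genes had moved by 0.34 and 0.31, and the share called in either direction was not computed. With the replicate block 1 gene was called over both days (contig13901, adjusted p = 0.0417; 0.3% of all genes) and 1 in NiNO3 EC20 against the control at day 3 (adjusted p = 0.0442; 0.247%). Normexp on the mean signal was not run.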
